A study of Mus musculus with 6 samples.

Results

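Respiratory complex I was followed through its genes in bulk RNA-seq of γδ T cells sorted from mouse tumors. The members are the genes whose symbol is Nduf followed by a, b, c, s, v or af and a number, together with Ndufab1, and 54 of the 53153 gene symbols in the count table met that rule. By symbol 46 are structural subunits or their copies and 8 are the assembly factors Ndufaf1 to Ndufaf8. All libraries came from Kit V558del/+ mice on a B6 background, age- and sex-matched and 8 to 10 weeks old, which carry an activating deletion in the receptor tyrosine kinase Kit and develop gastrointestinal stromal tumors. One group of 3 libraries came from mice on vehicle and the other group of 3 from mice that drank water with 600 mg/L of the KIT inhibitor imatinib (as mesylate) over 1 week. The mutant allele is shared by both groups, so every comparison here is of drug against vehicle in tumor-bearing animals. Nothing in the labels says that the 3 libraries of a group came from separate mice, so the p-values measure the spread between these libraries, which may be technical.

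Complex I, the NADH:ubiquinone oxidoreductase of the inner mitochondrial membrane, passes electrons from NADH to ubiquinone and pumps protons, and so feeds ATP synthesis. It is L-shaped: a peripheral arm in the matrix holds the flavin and the iron-sulfur clusters, and a membrane arm holds the proton channels. The core of the membrane arm is encoded by mitochondrial DNA and everything else by nuclear genes. Assembly factors such as the NDUFAF proteins help to build the complex and are not part of the finished enzyme.

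Counts of named genes totalled 21333897 to 25214210 per library, and 16621 genes passed the filter on low counts. The libraries were labelled γδ T cells and held γδ T cell transcripts, but macrophage markers summed to more than γδ T cell markers in every library. Markers of γδ T cells (Trdc, Trgc1, Trgc2, Trdv4 and the CD3 genes) summed to 1097 to 2027 CPM (counts scaled to a common library total) on vehicle and 2316 to 3381 CPM on imatinib, and 3 of the 7 rose. Macrophage markers summed to 9709 to 12700 CPM and 5830 to 10870 CPM, with 2 of 8 higher (Mrc1 and Lyz2) and none lower past the test. The other 6 had log2 fold changes below 0, from -0.42 for Adgre1 to -0.69 for C1qa. Beside these marker counts, 6.15% of all tested genes were higher and 8.42% lower past the test. Markers of αβ T cells came to 346 to 364 CPM on vehicle and 432 to 533 CPM on imatinib, with 3 of 6 higher (Trac, Trbc1 and Trbc2). The others went the other way without passing the test, with log2 fold changes of -0.27 (Cd4), -1.31 (Cd8a) and -1.24 (Cd8b1). Those of B and plasma cells came to 3301 to 26800 CPM and 18270 to 27470 CPM (0 of 6). Those of the Kit-positive tumor lineage came to 25.5 to 29.9 CPM and 77.1 to 282 CPM (2 of 3 higher). Those of fibroblasts came to 66.4 to 228 CPM and 325 to 643 CPM (0 of 5). Neutrophil markers were at 89.9 to 131 CPM and 115 to 360 CPM (0 of 5 tested) and epithelial markers at 60.6 to 147 CPM and 95.4 to 244 CPM (0 of 4). On vehicle most of the neutrophil sum was Csf3r, whose log2 fold change was -0.21. S100a8, S100a9, Cxcr2 and Retnlg had log2 fold changes of 2.65 to 3.11 (SE 0.81 to 1.03). These genes were higher in every imatinib library than in every vehicle library but did not pass the test. Foxp3, the regulatory T cell factor, stood at 0.318 to 0.775 CPM and 0 to 0.223 CPM, and the mast cell genes Mcpt4 and Tpsb2 were at 0 in every library but imatinib 3. These shifts accompany all of the results below, and their part in them was not tested. In bulk RNA, a different number of cells of a type and a different amount of RNA per cell cannot be told apart.

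The median subunit gene of complex I was slightly higher on imatinib and the median assembly factor was not. The direction of the subunits turns, to a median of -0.52, when libraries are scaled to their CD3 counts. The assembly factor median, close to 0, turns to 0.08 without vehicle 2, to 0.10 without imatinib 3 and to 0.0643 once the dependence of counts on transcript length and GC is removed. Of the 46 subunit-class genes 42 were tested, and 5 rose (Ndufb11, Ndufv3, Ndufa6, Ndufa4 and Ndufa1), none fell and the other 37 were not past the test (edgeR quasi-likelihood test, Benjamini-Hochberg adjusted p under 0.05). That is 11.9% of the tested subunits, against 6.15% of all tested genes that rose (1022) and 8.42% that fell (1399). The median log2 fold change was 0.19 over the subunits, -0.01 over the 8 assembly factors and 0.01 over all tested genes. Of the subunits 36 of 42 (85.7%) lay above 0, compared with 3 of 8 assembly factors and 51.2% of all tested genes. No assembly factor passed the test in either direction, nor did any at an unadjusted p under 0.05 (14.2% of all tested genes were higher and 16.8% lower there), and DESeq2 and limma also called 0 of the 8.

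**Figure D1:**
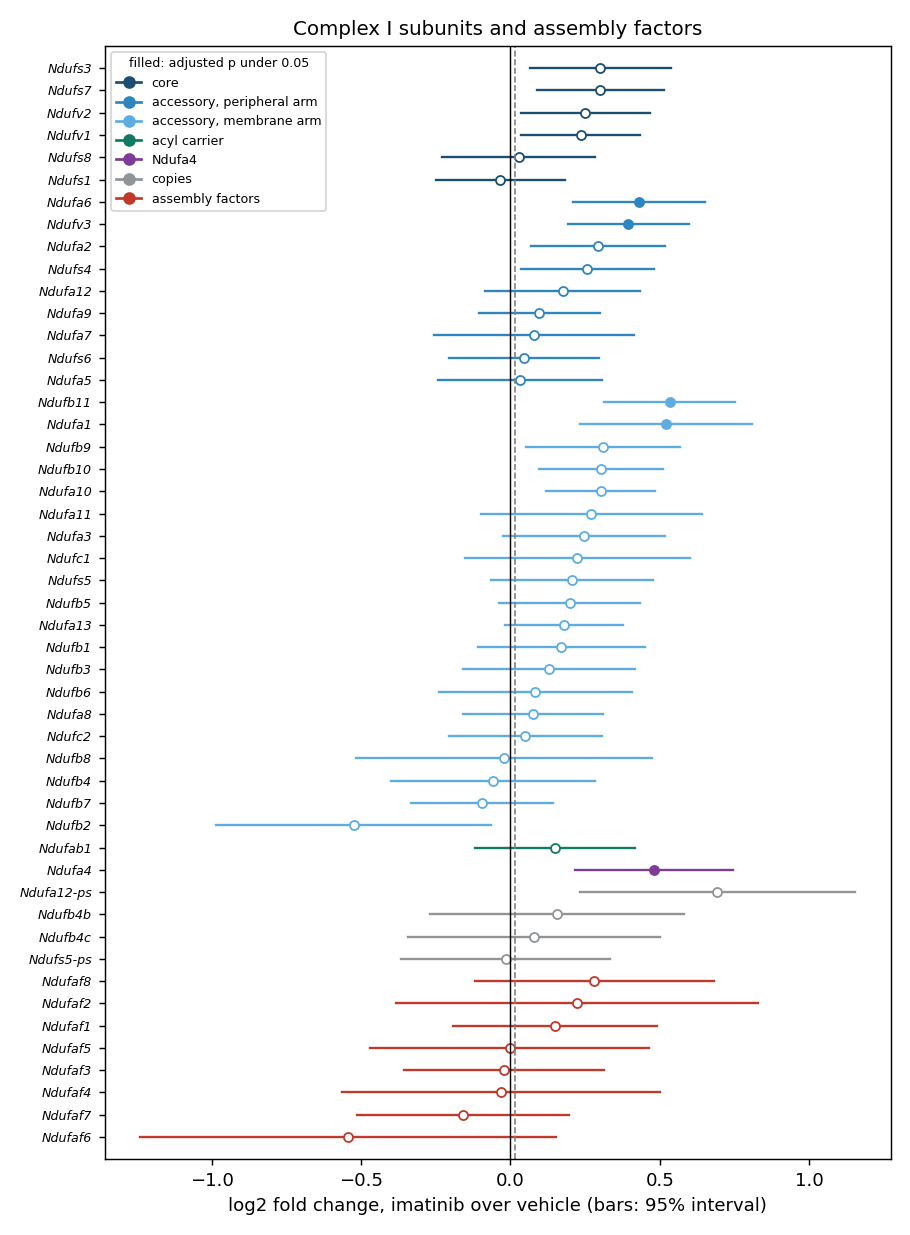
Log2 fold change of imatinib over vehicle (x axis) for the tested members named in the text (rows), coloured by role, with bars for the 95% interval of the edgeR estimate. Filled points passed an adjusted p of 0.05, and the dashed line is the median of all tested genes at 0.01. Under this scaling, which CD3 scaling turns, subunits lie mostly to the right of 0, with Ndufb2 at -0.53 standing to the left, and the assembly factors lie on both sides.

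In every library the summed counts showed the same picture. Subunit genes took 0.142%, 0.144% and 0.145% of all counts in vehicle libraries 1 to 3, and 0.168%, 0.161% and 0.161% in imatinib libraries 1 to 3. The groups did not overlap, and the imatinib mean was 1.14 times the vehicle mean. Assembly factors took 0.00688%, 0.00713% and 0.00709% on vehicle and 0.00724%, 0.00683% and 0.00681% on imatinib, where the groups overlapped. Counts of subunits per count of an assembly factor, a ratio that no scaling between libraries can alter, were 20.7, 20.2 and 20.5 on vehicle and 23.3, 23.6 and 23.6 on imatinib (20.5 ± 0.21 against 23.5 ± 0.23, SD, n = 3 each).

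**Figure D2:**
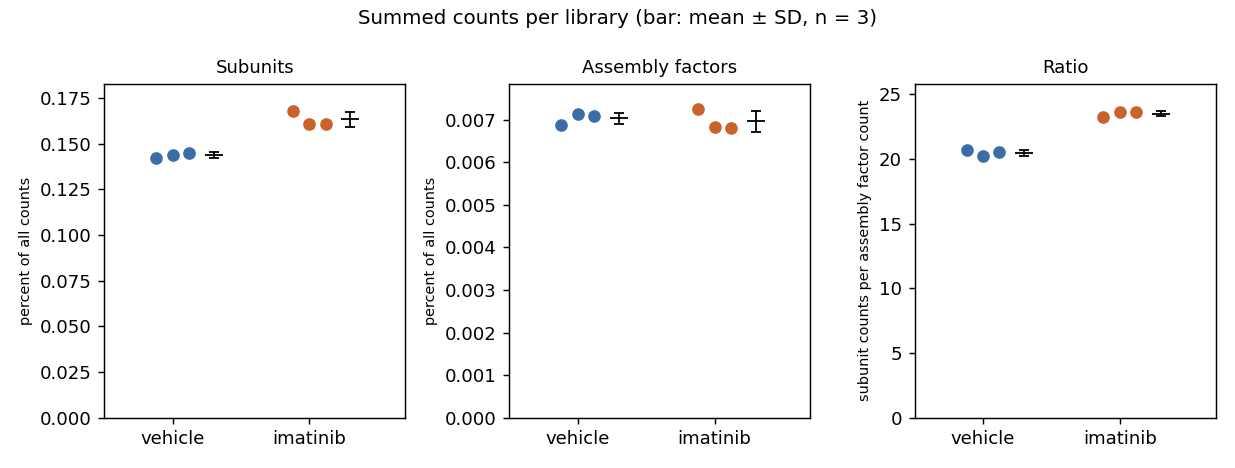
Summed counts per library (y axes: percent of all counts, and subunit counts per assembly factor count) for vehicle and imatinib, 1 point per library, with the mean ± SD (n = 3) beside the points. The subunit share and the ratio are higher in all 3 imatinib libraries than in all 3 vehicle libraries, whereas the assembly factor shares overlap.

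On a log scale, where each gene weighs the same, the mean log2 CPM of the tested subunits minus that of the assembly factors was 1.86, 1.73 and 1.89 on vehicle and 2.03, 2.03 and 2.04 on imatinib. Vehicle 2 was the lowest of the 6 libraries in this difference. The median log2 fold change of the subunits exceeded that of the assembly factors by 0.20. It exceeded it by 0.10 once the dependence of counts on transcript length and GC was removed, and also by 0.10 without vehicle 2. Since the members were chosen with results of these data known, no p is given for these sums.

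The direction of single genes depends on the reference used to scale the libraries. When each library was scaled to its summed Cd3d, Cd3e and Cd3g counts, the median of all tested genes moved to -0.72 and that of the subunits to -0.52, so that all 42 lay below 0, and 135 genes were higher and 4678 lower in all. Relative to the median of all genes under CD3 scaling the subunits were 0.19 higher and the assembly factors 0.04 higher, compared with 0.17 higher and 0.03 lower under the main scaling. A change of scaling moves all genes by nearly the same amount. These offsets could therefore hardly change and are not a second result. Scaling by library totals gave 763 genes higher and 1608 lower.

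The 5 members that rose come from different places in the complex. Ndufb11, an accessory subunit of the membrane arm (chrX:20615326-20617619, minus strand, GRCm38), had scaled counts of 1122, 1067 and 1065 on vehicle and 1390, 1730 and 1588 on imatinib (libraries 1 to 3, as in all values that follow). The lowest imatinib library, imatinib 1, lay above the highest vehicle library (log2 fold change 0.53, SE 0.11, adjusted p = 0.0197 by edgeR). Ndufa1, also of the membrane arm (chrX:37187588-37191163, minus strand), had 526, 626 and 466 scaled counts on vehicle and 684, 838 and 800 on imatinib (log2 fold change 0.52, SE 0.15, adjusted p = 0.0479 by edgeR). Its highest vehicle library, vehicle 2, lay close to its lowest imatinib library, imatinib 1.

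Ndufv3, the accessory subunit bound to the NADH-oxidizing flavoprotein part of the peripheral arm (chr17:31520115-31531331, plus strand), had 984, 1058 and 968 scaled counts on vehicle and 1314, 1250 and 1394 on imatinib (log2 fold change 0.40, SE 0.10, adjusted p = 0.0376 by edgeR). Ndufa6, an LYR-motif accessory subunit of the peripheral arm that binds the acyl carrier protein (chr15:82350140-82354322, minus strand), had 1014, 1049 and 988 on vehicle and 1218, 1394 and 1501 on imatinib (log2 fold change 0.43, SE 0.11, adjusted p = 0.0379 by edgeR). For both genes all imatinib libraries were above all vehicle libraries. Ndufa4 (chr6:11900292-11907497, minus strand), which was named as a complex I subunit and is now placed in complex IV, had 1056, 1171 and 851 scaled counts on vehicle and 1360, 1414 and 1521 on imatinib (log2 fold change 0.48, SE 0.13, adjusted p = 0.0465 by edgeR). Leaving it out together with its paralogue and the copies kept 37 subunits, of which 4 rose, with a median log2 fold change of 0.20.

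**Figure D3:**
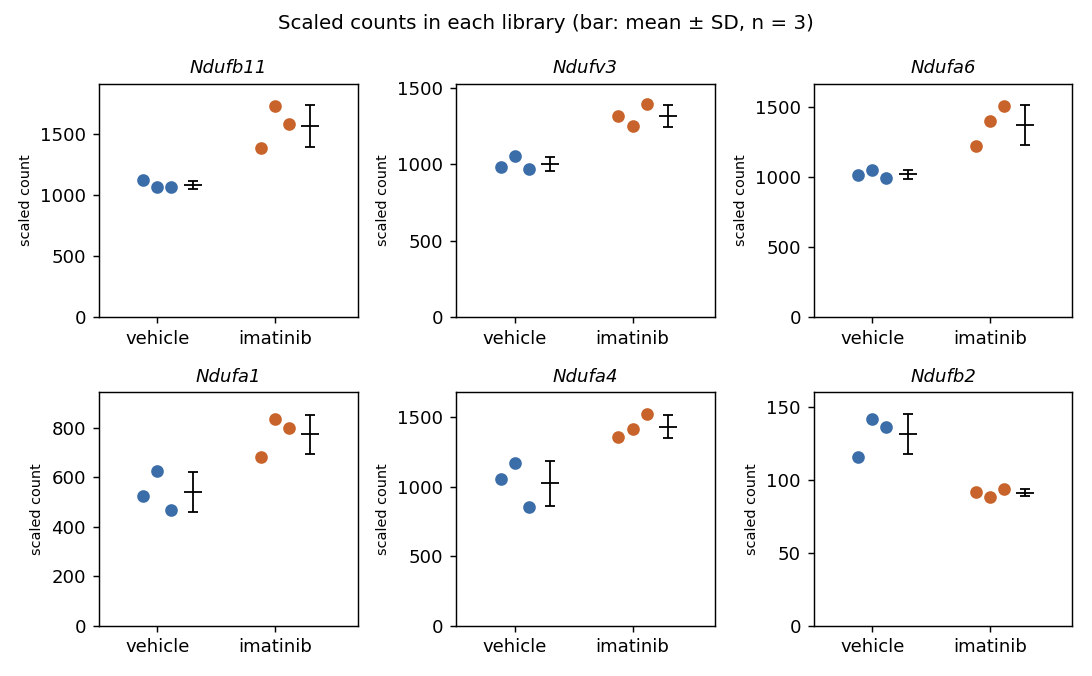
Scaled counts (y axes, each from 0) of the 5 members that rose and of Ndufb2 in the 3 vehicle and 3 imatinib libraries, 1 point per library, with the mean ± SD (n = 3) beside the points. The groups do not overlap in any panel, and Ndufb2 is the panel in which imatinib is the lower group.

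These calls were close to the threshold. The number of subunits that rose was 0 without vehicle 1, vehicle 2, vehicle 3 or imatinib 3, where 1.48%, 1.47%, 1.33% and 1.05% of all tested genes rose. It was 3 without imatinib 1 (3.4% of all genes) and 2 without imatinib 2 (6.72% of all genes), and the highest adjusted p of Ndufb11 among those fits was 0.0721. DESeq2 called 8 subunits higher (9.83% of all genes), Ndufa10 and Ndufa12-ps among them, and limma called 6 (7.71% of all genes). Removing the length and GC dependence left Ndufb11 and Ndufv3 (5.62% of all genes), library totals left Ndufb11 and Ndufa6 (4.59%), and CD3 scaling left 0 (0.812%).

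The nuclear core subunits carry the flavin and the iron-sulfur clusters, and none of them passed the adjusted test. Ndufs7, Ndufs3, Ndufv1 and Ndufv2 were higher in every imatinib library than in every vehicle library, as were 17.5% of all tested genes. Ndufs1 and Ndufs8 were not. Ndufs7, which holds the last iron-sulfur cluster, had 768, 683 and 698 scaled counts on vehicle and 916, 866 and 867 on imatinib (log2 fold change 0.30, SE 0.11, adjusted p = 0.0954 by edgeR). Its lowest imatinib library lay clear of its highest vehicle library, vehicle 1.

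Ndufs3, a further subunit of the quinone-reducing part, had 1020, 922 and 850 scaled counts on vehicle and 1053, 1250 and 1138 on imatinib (log2 fold change 0.30, adjusted p = 0.125). Ndufv1, which binds the flavin and NADH, had 1237, 1194 and 1330 on vehicle and 1574, 1442 and 1412 on imatinib (0.24, adjusted p = 0.154). Its partner Ndufv2 had 978, 1048 and 1165 on vehicle and 1276, 1317 and 1207 on imatinib (0.25, adjusted p = 0.157). In these genes the nearest libraries of the groups were close together but did not cross. The largest core subunit, Ndufs1, had 945, 1037 and 1055 scaled counts on vehicle and 1055, 921 and 990 on imatinib (-0.03, adjusted p = 0.870). Ndufs8, an iron-sulfur subunit, had 1235, 1096 and 1299 on vehicle and 1118, 1429 and 1152 on imatinib (0.03, adjusted p = 0.914). Their groups overlapped.

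Among the 9 accessory subunits of the peripheral arm all had a log2 fold change above 0, from 0.03 for Ndufa5 to 0.43 for Ndufa6, with a median of 0.17. Besides Ndufv3 and Ndufa6, the groups did not overlap for Ndufa2 (0.29), Ndufs4 (0.26) and Ndufa9 (0.10), none of which passed the test. Of all tested genes 17.5% had every imatinib library above every vehicle library. For Ndufa9 the nearest libraries were almost level, at 1037 scaled counts in vehicle 1 and 1039 in imatinib 3. Ndufs4, Ndufa12 and Ndufs6 sit close to the NADH-oxidizing part, and Ndufa9 lies near the quinone site. Ndufa12 (0.17), Ndufa7 (0.08), Ndufs6 (0.04) and Ndufa5 overlapped between groups.

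The 20 accessory subunits of the membrane arm ranged from -0.53 to 0.53 in log2 fold change, with a median of 0.19, and 16 lay above 0. Behind Ndufb11 and Ndufa1 came Ndufb9 (0.31), Ndufb10 (0.30) and Ndufa10 (0.30), whose imatinib libraries all lay above the vehicle libraries at adjusted p = 0.149, 0.0888 and 0.0621. Ndufa13 and Ndufa3 were also apart between groups in this order (0.18 and 0.25), as were 17.5% of all tested genes. Ndufa11, Ndufc1, Ndufs5, Ndufb5, Ndufb1, Ndufb3, Ndufb6, Ndufa8 and Ndufc2 lay between 0.05 and 0.27 with overlapping groups. Ndufb8, Ndufb4 and Ndufb7 lay at -0.02, -0.06 and -0.09, also with overlapping groups.

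Ndufb2 was the exception in the membrane arm. It had 116, 142 and 137 scaled counts on vehicle and 92.1, 88.6 and 93.8 on imatinib, and the imatinib libraries were all below the vehicle libraries. The log2 fold change was -0.53 (SE 0.23) and did not pass the test (adjusted p = 0.167 by edgeR). It is the only subunit with this order of the groups, which 20.2% of all tested genes have, while 19 of 42 subunits had the opposite order, which 17.5% of all genes have. Ndufb2 was also the lowest tested subunit per length, at 1.05 CPM per kilobase on vehicle. That value rests on 5628 bases of annotated exons, a long union that can lower it. Its exons overlap those of Braf on the opposite strand over 146 bases.

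Ndufab1, the mitochondrial acyl carrier protein, which sits in the complex in both arms and also serves fatty acid and lipoate synthesis, had 442, 494 and 397 scaled counts on vehicle and 472, 528 and 479 on imatinib (log2 fold change 0.15, adjusted p = 0.500 by edgeR). Its groups overlapped. Ndufa4l2, the paralogue of Ndufa4 known from hypoxic cells, had at most 10.6 scaled counts in any library and was not tested. The copies Ndufa11b, Ndufb11b and Ndufs6b were not tested either, and Ndufb11b had no count in any library.

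The 4 copies that were tested did not pass. Ndufa12-ps, whose scaled counts were 162, 120 and 130 on vehicle and 278, 202 and 187 on imatinib, had the largest log2 fold change of all members (0.69, SE 0.23, adjusted p = 0.0816 by edgeR). It is a processed pseudogene that matches Ndufa12 at 99.5% of 221 bases, so reads could be split between the pair, and Ndufa12 itself had a log2 fold change of 0.17. Ndufb4b (0.16), Ndufb4c (0.08) and Ndufs5-ps (-0.02) overlapped between groups. Ndufb4c is identical to Ndufb4 over all of its 390 bases, and both are uncertain for that reason.

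Near-identical processed copies also exist for Ndufs3 (Gm12251, 98.6% over 792 bases), Ndufab1 (Gm4459, 99.8% over 468 bases) and Ndufs6 (Ndufs6b, 95.8% over 287 bases). So they do for Ndufb11 (Gm6444, 96.9% over 456 bases), Ndufs5 (BC002163, 99.4% over 319 bases) and Ndufb3 (Gm45930, 96.8% over 282 bases). Gm6444 had a mean of 10.7 counts per library, against 1320 for Ndufb11. Exons overlap a gene on the opposite strand for Ndufb11 (Rbm10, 12.9% of its exon length), Ndufb1 (Cpsf2, 12.7%), Ndufb6 (Smim27, 39% of its exon length), Ndufa13 (Tssk6) and Ndufaf2 (B230220B15Rik, 65.6%). Whether the counting used strand was not given in the sources used here, so reads of these pairs may not be separated.

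The assembly factors varied around 0 with overlapping groups in all 8. Ndufaf8 had the highest log2 fold change, with 260, 195 and 181 scaled counts on vehicle and 226, 284 and 265 on imatinib (0.28, SE 0.20, adjusted p = 0.386 by edgeR). In human cells its product stabilizes that of Ndufaf5, an enzyme of the methyltransferase fold that hydroxylates NDUFS7, and Ndufaf5 had 155, 178 and 125 on vehicle and 176, 157 and 125 on imatinib (0.00, adjusted p = 0.998). Ndufaf7, a methyltransferase needed early in assembly, had 353, 280 and 380 on vehicle and 321, 256 and 330 on imatinib (-0.16, adjusted p = 0.598). Vehicle and imatinib libraries were interleaved in all of these.

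Ndufaf3 and Ndufaf4, which act together on the quinone-reducing part, had 232, 231 and 283 against 245, 236 and 254 scaled counts (log2 fold change -0.02, adjusted p = 0.948) and 217, 237 and 182 against 170, 296 and 157 (-0.03, adjusted p = 0.951). In Ndufaf4 imatinib 2 was the highest of the 6 libraries and imatinib 3 the lowest. Ndufaf1, a part of the mitochondrial assembly complex of the membrane arm, had 208, 223 and 209 on vehicle and 208, 246 and 256 on imatinib (0.15, adjusted p = 0.601). Ndufaf2, which takes part late in assembly as a paralogue of Ndufa12, had 93.2, 138 and 114 on vehicle and 180, 89.7 and 133 on imatinib (0.22, adjusted p = 0.669). Ndufaf6 was the lowest by fold and among the least counted, with 66.7, 76.3 and 50.1 on vehicle and 36.4, 52.0 and 43.9 on imatinib (-0.54, SE 0.35, adjusted p = 0.336). For Ndufaf6 the 95% interval of the log2 fold change ran from -1.24 to 0.15, which is wide beside the interval of 0.31 to 0.75 for Ndufb11.

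The assembly factors were less abundant than the subunits. Per kilobase of exon the 8 had a median of 4.06 CPM per kilobase on vehicle, from 1.73 for Ndufaf2 to 11.4 for Ndufaf8, whereas the 40 tested subunits with a known length had a median of 21.3, from 1.05 for Ndufb2 to 67.2 for Ndufa2. On imatinib the medians were 3.83 and 24.9 CPM per kilobase. The core subunits had a median of 21.3, the peripheral accessory subunits 20.3 and the membrane accessory subunits 23.4 CPM per kilobase on vehicle. These levels rest on the union of annotated exons, so a gene with long rare isoforms can appear low. Ndufab1 has a union of 6883 bases (2.89 CPM per kilobase) and Ndufb2 one of 5628 bases.

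**Figure D4:**
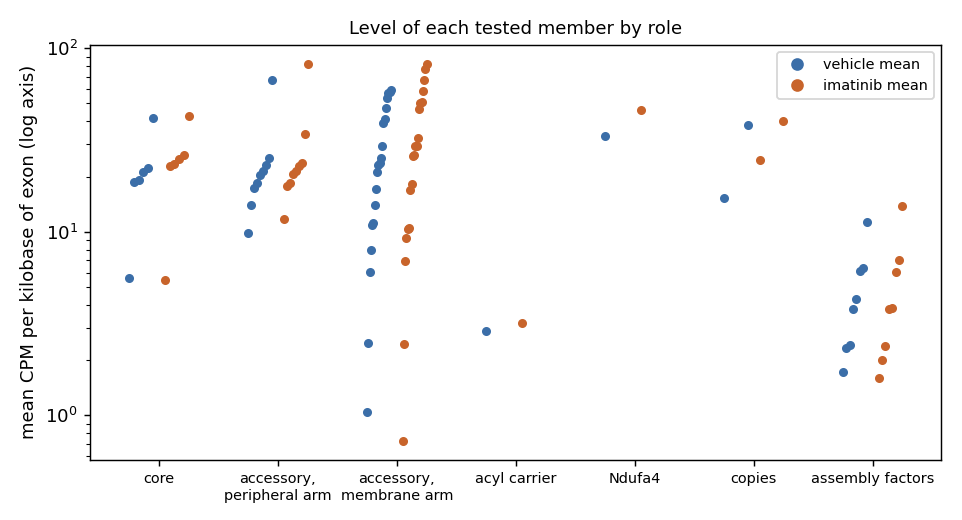
Mean CPM per kilobase of exon (log axis) of tested members with a known length, by role (x axis), with vehicle means in blue and imatinib means in orange. The assembly factors lie between 1.73 and 11.4 on vehicle, and most subunits lie above them. The low subunits Ndufb2 (1.05) and Ndufab1 (2.89) have long unions of annotated exons, which can lower these values.

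Promoters were searched for 4 sets of letters on both strands, in a window of 250 bases before to 50 bases after the start of each gene (RefSeq, GRCm38.p6), which was found for 35 subunit genes and 7 assembly factors. GCCATNTTG, the core of the element bound by YY1, was in 7 of the 35 subunit promoters (20.0%) and 1 of the 7 assembly factor promoters (14.3%), against 2.90% of all promoters and 4.66% of those of tested genes. In all 8 it read as the reverse complement in the direction of the gene. The stretches are shown because this is the motif whose share among the subunits lay farthest above that of tested genes, with the match in capitals and 10 bases on each side where the window allows:
Ndufb11: gtcaccaacaCAAAATGGCgacgagaaga
Ndufs7: aggccgaggcCAAGATGGCggcgctggcg
Ndufs8: ctctctgataCAACATGGCagctccctac
Ndufs6: gggtcaccggCAAGATGGCggcggtgct
Ndufa3: ccgccaagaaCAAGATGGCcgggagtaag
Ndufb5: tgccctcactCAATATGGCctcctctagc
Ndufc1: gcctgcggaaCAAGATGGCgccgtccgta
Ndufaf8: aggcagggccCAAGATGGCggcgccctcg

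The match began 22 to 33 bases after the start in Ndufa3, Ndufc1, Ndufs7 and Ndufs6 and 10 bases after it in Ndufaf8, and before the start in Ndufb11, Ndufb5 and Ndufs8 (position -212, -74 and -166). The printed stretch of Ndufb11 is chrX:20617813-20617841 and that of Ndufs7 is chr10:80249462-80249490. Ndufb11 was the one gene of the 5 that rose to hold this match, and Ndufs7 and Ndufa3 were apart between groups without passing the test, while the groups overlapped for Ndufs8, Ndufs6, Ndufb5, Ndufc1 and Ndufaf8.

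The core of the NRF1 element, a palindrome of the letters in capitals below, was in 1 of 35 subunit promoters (2.86%) and 2 of 7 assembly factor promoters, against 1.07% of all promoters and 2.13% of those of tested genes. Those matches are shown because assembly factors hold most of them:
Ndufa11: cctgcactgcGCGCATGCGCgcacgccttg
Ndufaf4: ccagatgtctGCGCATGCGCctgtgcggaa
Ndufaf5: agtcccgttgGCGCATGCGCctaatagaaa
CCGGAAG, the ETS core bound by GABP, was in 4 of 35 subunit promoters (11.4%) and 2 of 7 assembly factor promoters, against 9.93% of all and 18.8% of those of tested genes. TCAAGGTCA, the element of the estrogen-related receptors, was in none of the 42 and in 0.466% of all promoters. No test was made of these shares.

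Other genes of the pathway were described beside the subunits. The 7 subunits encoded by mitochondrial DNA all had a log2 fold change above 0 (median 0.23, from 0.06 for mt-Nd4l to 0.58 for mt-Nd3), and none passed the test. With CD3 scaling their median was -0.53. Summed, they were at 6808, 12220 and 11380 CPM on vehicle and 14000, 9976 and 11480 CPM on imatinib, so the groups overlapped and vehicle 1 was the lowest library. Assembly factors not named Ndufaf had a median of -0.02 over 11 tested genes, close to that of the NDUFAF genes. Of these 11, 1 was lower past the test and 0 higher, where 8.42% of all tested genes were lower and 6.15% higher. That gene, Foxred1, an oxidoreductase needed for assembly, fell from 628, 629 and 697 scaled counts on vehicle to 404, 479 and 415 on imatinib (log2 fold change -0.59, adjusted p = 0.0210 by edgeR). Dmac2 lay just outside (-0.46, adjusted p = 0.0502). Both were lower in every imatinib library than in every vehicle library, as were 20.2% of all tested genes.

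The nuclear genes of complexes II to V had 10 of 48 tested members higher and none lower (20.8%, beside 6.15% higher and 8.42% lower among all tested genes), with a median log2 fold change of 0.30, above the 0.19 of the complex I subunits (-0.43 and -0.52 with CD3 scaling). The mitochondrial ribosomal proteins had 1 of 81 higher (1.23%) and 1 lower, with a median of 0.13 (-0.60 with CD3 scaling). Whether these medians differ was not tested.

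**Figure D5:**
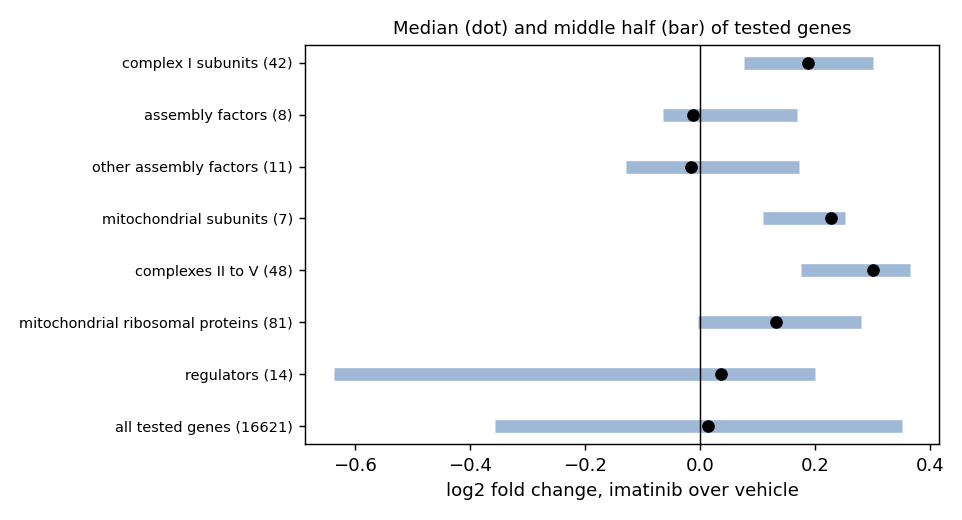
Median (dot) and interquartile range (bar) of the log2 fold change of imatinib over vehicle (x axis) for each list, with the number of tested genes in brackets. With the main scaling the subunits of complex I (0.19), the mitochondrial subunits (0.23) and complexes II to V (0.30) lie above all tested genes (0.01), and both groups of assembly factors lie near 0, while CD3 scaling puts the median of each of the plotted lists below 0.

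Regulators of mitochondrial genes were not all called in the same direction under the main scaling. Of 14 tested, Epas1, a hypoxia-inducible factor subunit, rose (log2 fold change 1.12, adjusted p = 0.0160 by edgeR), and Pprc1, a PGC-1-related coactivator (-0.998, adjusted p = 0.00408), Myc (-0.80, adjusted p = 0.0125) and Esrra, the estrogen-related receptor alpha (-0.69, adjusted p = 0.0252), fell by edgeR. Among all tested genes 6.15% were higher and 8.42% lower. With CD3 scaling the median of the 14 was -0.66 and 1 of them lay above 0. Under it 5 of the 14 were lower past the test, beside 4678 of all 16621 tested genes. Epas1 was no longer called (0.31, adjusted p = 0.494 by edgeR). Esrra had 1016, 1151 and 999 scaled counts on vehicle and 516, 767 and 681 on imatinib. Ppargc1b lay just outside the test (-0.72, adjusted p = 0.0517 by edgeR) and was lower in every imatinib library. Gabpa (0.14), Nrf1 (0.09) and Yy1 (-0.01) did not pass the test. Of the 14 regulators, 3 had all imatinib libraries above all vehicle libraries and 4 had them below. Among all tested genes these orders had shares of 17.5% and 20.2%.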

How the data were processed

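The members and lists were chosen with earlier results of these data known. The authors sorted CD45+CD3+NK1.1-TCRγδ+ cells from tumor (the series design text names regulatory T cells instead), sequenced polyA RNA, aligned reads with STAR to GRCm38 (mm10) and counted them with featureCounts. Annotation, strand setting and treatment of multiply mapped reads were not given in the sources used here. The deposited values are raw counts per gene.

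Of 57332 rows, 3016 without a gene name (0.118% to 0.158% of counts) were left out, 1013 exact repeats were counted once and rows of 78 symbols were summed. A further 3 columns matched no sample and were not used. No pair of libraries agreed within sampling noise (lowest chi-square per gene 34.1).

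Imatinib was compared with vehicle by edgeR 4.0.16 (R 4.3.3) with its default filter, TMM scaling and robust quasi-likelihood tests, with Benjamini-Hochberg adjustment over 16621 genes. The procedure was also run on simulated counts with known changes. There it missed the genes given the smallest change and most of those given the middle change, and called most of those given the largest. A gene not past the test may therefore still have a small or moderate change. Scaled counts are TMM-scaled to a common library size. Named members were those past an adjusted p of 0.05, the 4 with the largest log2 fold change in each direction, the nuclear core subunits, all assembly factors, Ndufa4, Ndufa4l2 and Ndufab1. The values of 1 member are not reported here. Ndufa12, the remaining subunits, Foxred1, Dmac2 and the listed regulators are given by the lists. Alternatives were RLE factors, library totals, CD3 scaling, 2 other filters, DESeq2 1.42.0, limma 3.58.1, a replicate block, a length and GC trend (GENCODE M21), each library left out, all rows kept, other thresholds and other definitions of the subunits. Tables used Python 3.11.15, pandas 2.3.3 and matplotlib 3.10.9.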

Additional observations from a re-analysis of the deposited data

How the results depend on the processing

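A gene counted as reversed if its direction turned and 1 of the values was past the test. Scaling to CD3 counts turned the 5 members that rose: Ndufb11 to -0.18, Ndufv3 to -0.33, Ndufa6 to -0.29, Ndufa1 to -0.16 and Ndufa4 to -0.20. None of these 5 passed the test as lower under that scaling. For Ndufb11, Ndufa6, Ndufa1 and Ndufa4 the SE was 0.35 and the adjusted p 0.523 to 0.735 by edgeR. CD3 scaling gave medians of -0.52 for subunits and -0.67 for assembly factors, 0 subunits higher and 1 lower (Ndufb2), 1 assembly factor lower, and 135 genes higher and 4678 lower. The number of subunits that rose was 2 with library totals, 8 with DESeq2 (1634 genes higher in all), 2 after removing the length and GC trend, 0 with an adjusted p of 0.01 (67 genes higher and 272 lower), 10 with 0.1 (1761 and 2176) and 0 with a log2 fold change beyond 1 (304 and 540). Removing that trend moved the assembly factor median to 0.0643 and the difference between the medians to 0.10. Leaving out 1 library gave 0 to 3 subunits higher, 182 to 1171 genes higher and 503 to 1780 lower, an assembly factor median of -0.0323 to 0.10 (0.08 without vehicle 2 and 0.10 without imatinib 3, both above 0), a subunit median of 0.17 to 0.23 and a difference of 0.10 to 0.23.

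Deviations of same-numbered libraries were not positively correlated (-0.21, -0.06 and -0.06, against -0.11 to 0.18 for other pairs). So few correlations cannot settle whether libraries of the same number shared handling, and the labels do not say. With the replicate number as a block 0 subunits rose, 173 genes were higher and 437 lower, and with the block and the length and GC trend 0 subunits rose, 149 genes were higher and 216 lower. The cause of these changes was not tested. Of the values of the 24 named members under alternatives, 356 stayed on their side of the threshold without a reversal, 43 lost the call, 4 gained it and 5 reversed. Most of the 356 were of members never called, and all lost calls and reversals fell on the 5 members that rose. Of 17 alternatives, the call held in 10 for Ndufb11, 8 for Ndufa6, 7 for Ndufv3, and 6 each for Ndufa1 and Ndufa4. Low counts, as for Ndufaf6 and Ndufb2, limit which differences can be seen.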
